A study of Mus musculus with 4 samples.

Results

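Kinesins are motor proteins that walk along microtubules with energy from ATP, and centromere proteins build the kinetochore, the plate on each chromosome to which spindle microtubules attach. Mitotic kinesins move spindle poles and chromosomes and help to split the cell at the end of division, whereas transport kinesins carry vesicles, organelles and RNA between divisions and are best known from neurons. Mouse embryonic stem cells divide fast and so use the mitotic members of both families heavily. The genes described here were all 63 whose symbol in the count files begins with Kif or Kifc and a number, or with Cenp and a letter, of 24428 genes in all. By known role they were 16 mitotic kinesins, 17 transport kinesins, 10 ciliary and other kinesins, 19 centromere proteins and Kif16bos, an antisense transcript that falls in none of these classes. Cenpe is itself a kinesin and Cenpj a centriole protein, and both were counted with the centromere proteins by symbol. Kif1bp, a binding protein and no motor, was counted with the other kinesins.

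The RNA came from a 129SvEv line of these stem cells at passage 15 to 20. Both Smarca4 alleles of the line are floxed (Smarca4flfl), and it holds CreER, a Cre recombinase that enters the nucleus when tamoxifen binds its estrogen receptor domain. Smarca4 encodes BRG1, an ATPase of the mSWI/SNF (BAF) chromatin remodeling complexes. Cells in serum and LIF received ethanol (2 libraries, called ethanol 1 and 2) or 0.8 uM 4-hydroxytamoxifen (2 libraries, tamoxifen 1 and 2) for 48 h and were harvested 72 h after the treatment began. All 4 libraries carry the genotype label of an acute Smarca4 deletion, so the groups rest on the titles and treatment labels, and deletion, drug and active Cre cannot be told apart. The labels do not say that replicates were separate cultures, so each p-value measures the spread between these libraries only, which may be technical. Libraries held 13458463 to 27086142 reads in genes. Of counted reads, 40.8 to 51.7% in the ethanol libraries and 35.0 to 37.6% in the tamoxifen libraries were listed as lying on no annotated feature.

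Levels are given as CPM, read counts scaled to library size with TMM factors, and changes as log2 fold changes ± SE, positive where tamoxifen was higher. A gene was called where the quasi-likelihood test of edgeR gave a Benjamini-Hochberg adjusted p under 0.05 over all 14479 genes tested. Smarca4 was at 328 and 409 CPM with ethanol against 68.5 and 68.7 CPM with tamoxifen. This was a log2 fold change of -2.43 ± 0.17 (adjusted p = 1.08e-05). The stem cell factor Pou5f1 was at 269 and 336 CPM with ethanol and 312 and 371 CPM with tamoxifen. Nanog was at 540.2 and 451 CPM with ethanol and 698 and 580.3 CPM with tamoxifen. Of the 10 stem cell markers compared below, 6 had a positive and 4 a negative log2 fold change (7196 and 7283 over all genes). Over all genes 44.5% were called, 21.5% higher and 22.9% lower with tamoxifen. Changes followed the GC content of the transcript, with a Spearman correlation of 0.645 across genes, so members are also given their value from a second fit in which the GC trend of each library was removed. In that fit 20.1% of all genes were called, 10% higher and 10.1% lower.

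Kinesins and centromere proteins together were lower with tamoxifen more often than higher. Of the 60 members tested, 24 (40%, against 22.9% of all genes) fell and 12 (20%, against 21.5%) rose, and the median log2 fold change was -0.20, against -0.01 over all genes (-0.06 against 0.01 with GC correction). Mitotic kinesins fell in 8 of 15 cases and rose in 3, and centromere proteins fell in 11 of 19 and rose in 2. Transport kinesins fell in 4 of 17 cases and rose in 5, and ciliary and other kinesins fell in 1 of 9 and rose in 2. With the GC trend removed, 9 members were lower and 3 higher: 2 mitotic kinesins, 3 transport kinesins and 4 centromere proteins were lower, and 1 transport kinesin and 2 centromere proteins were higher. Among the 24 decreases 8, and among the 12 increases 3, were called in both fits, none was called in opposite directions, and GC correction ended the other 25 calls. Over all genes, 1112 of 3322 decreases and 1078 of 3119 increases were called in both fits. With either tamoxifen library left out, fewer mitotic kinesins and centromere proteins were called lower and fewer transport kinesins higher. Calls of all genes were also fewer, in both directions, without tamoxifen 1 or without tamoxifen 2. With GC correction as well, 0 mitotic kinesins and 2 centromere proteins were lower without tamoxifen 1 (all genes: 814 higher and 1017 lower, from 1448 and 1463) and 1 and 3 without tamoxifen 2 (all genes: 535 and 581), and 1 transport kinesin was lower without either of these or without ethanol 2. Reads of the 63 genes took 0.506 and 0.570% of reads in genes with ethanol, against 0.414 and 0.453% with tamoxifen. In bulk RNA, fewer dividing cells and less RNA of these genes per cell cannot be told apart.

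**Figure D1:**
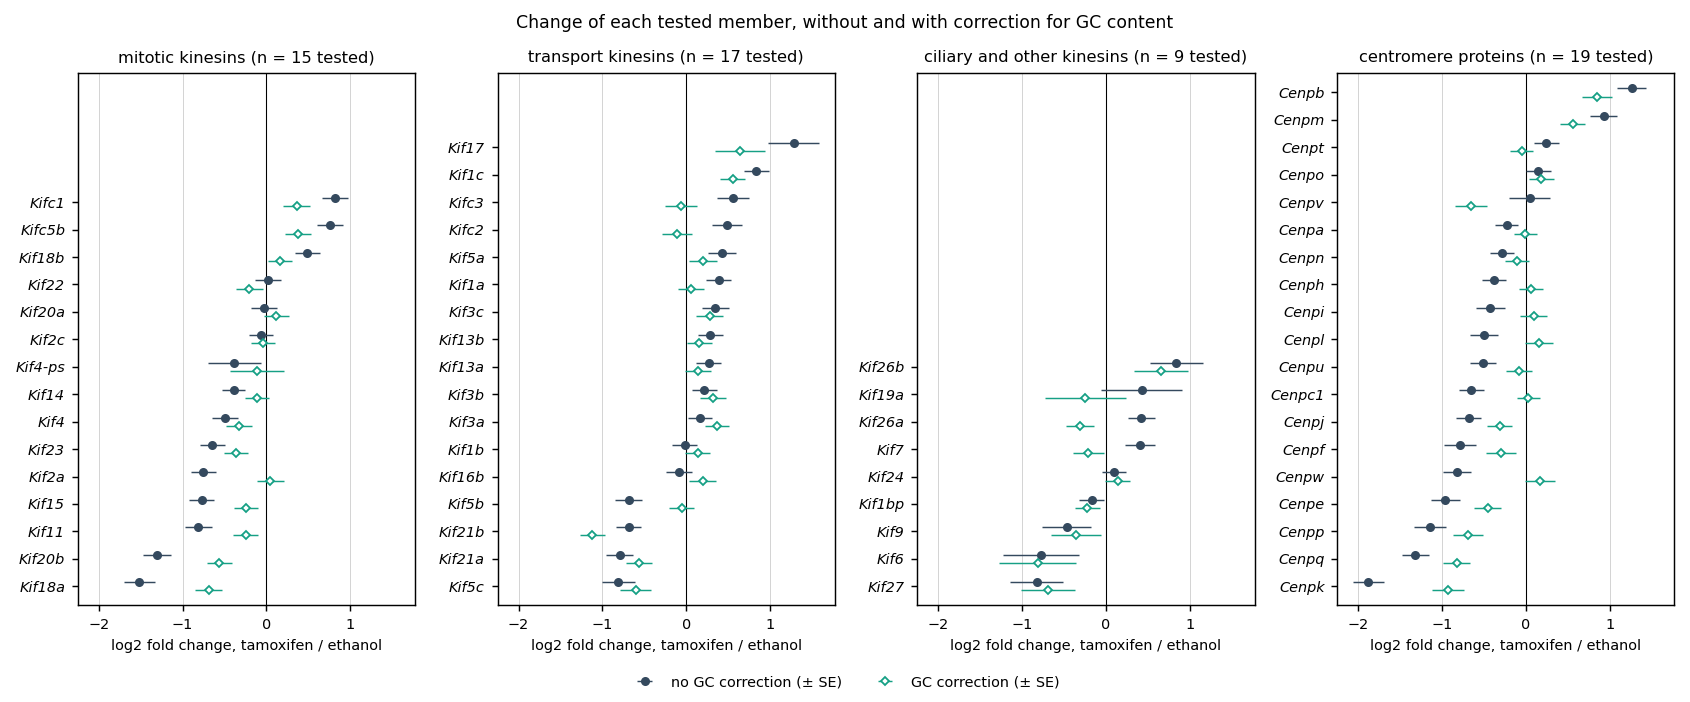
Log2 fold change (tamoxifen over ethanol, horizontal axis, ± SE) of each tested member by class, without (filled circles) and with (open diamonds) correction for GC content. Most mitotic kinesins and centromere proteins lie left of 0 and move toward it with the correction, while Kif21b moves from -0.69 to -1.12.

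Markers of other cells were also compared, with 21.5% of all genes called higher and 22.9% lower (10 and 10.1% with GC correction). Of 23 fibroblast markers tested, 17 were higher with tamoxifen and 0 lower (17 and 1 with GC correction), and the 25 of the list summed to 1444 to 1655 CPM with ethanol and 2314 to 2331 CPM with tamoxifen. None of the 25 was without a read, and the defining Col1a1 went from 66.4 ± 20.3 to 182 ± 0.0717 CPM. Of 13 neuron markers 3 were higher and 3 lower (23.1% each), close to the shares of all genes. With GC correction 3 were higher and 4 lower (23.1 and 30.8%). The list summed to 455 to 494 CPM with ethanol and 334 to 346 CPM with tamoxifen. Stmn2 went from 302 ± 16.8 to 143 ± 16.1 CPM and Tubb3 from 24.2 ± 1.83 to 48.3 ± 0.979 CPM. Of 15 primitive endoderm markers 5 were higher and 1 lower (33.3 and 6.67%, and 13.3 and 6.67% with GC correction). These summed to 2516 to 2759 CPM with ethanol and 3081 to 3214 CPM with tamoxifen. Of 10 stem cell markers 2 were higher and 1 lower (20 and 10%, and 30 and 20% with GC correction). Their sums were 5385 to 5476 CPM with ethanol and 5407 to 5703 CPM with tamoxifen. Whether cells other than stem cells were present was not tested. Nor was their part, or that of reads on no annotated feature, in the decrease of mitotic kinesins and centromere proteins. The same holds for the changes of Kif5c, Kif1a and Kif21b.

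The other 3 members were not tested. Kif2b had no read in any library, which allows up to 0.115 to 0.212 CPM by library (3 counts; counting error only). Kif12 had 1 or 2 reads in each library, and the antisense transcript Kif16bos had 0 to 4. Of the tested members, both tamoxifen libraries lay above both ethanol libraries for 22 and below them for 30, and the groups overlapped for 8. Over all genes 74% did not overlap, 37% in each direction.

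**Figure D2:**
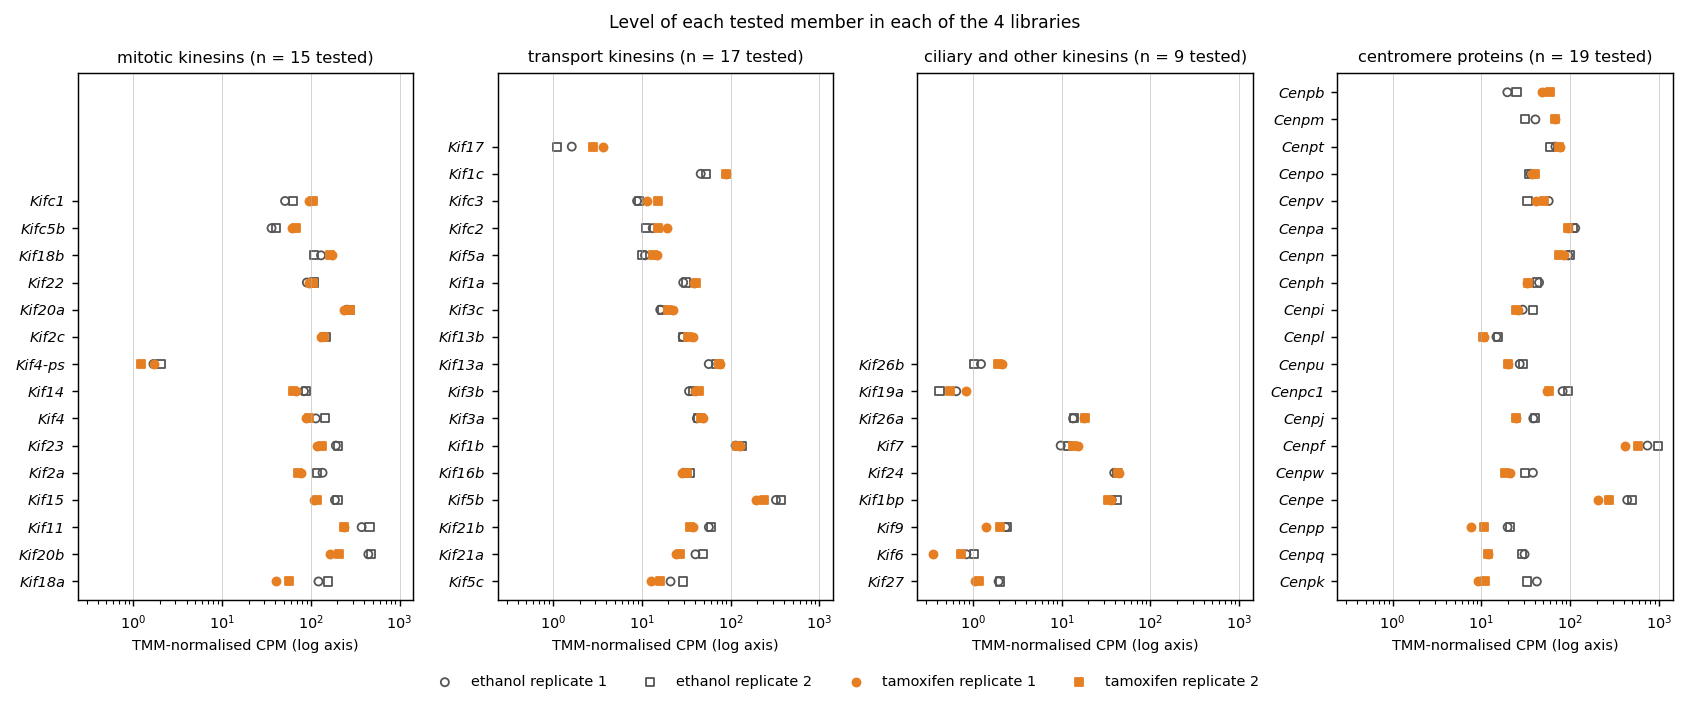
Level of each tested member (TMM-normalised CPM, horizontal log axis) in the 2 ethanol libraries (open symbols) and the 2 tamoxifen libraries (filled symbols), by class. Cenpf is the most abundant at 413 to 966 CPM, and the tamoxifen symbols of Kif18a, Kif20b and Cenpk lie left of both ethanol symbols.

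Among the motors that set up the spindle, the pole-separating Kif11 and its backup Kif15 fell, and the minus-end motor Kifc1 rose. Kif11 (Eg5), the tetramer that slides antiparallel microtubules and so pushes spindle poles apart, was at 374 and 459 CPM with ethanol against 236 and 239 CPM with tamoxifen. Both tamoxifen libraries lay well below both ethanol libraries, which differed by more among themselves, and the log2 fold change was -0.81 ± 0.16 (adjusted p = 0.00184). Kif15, which can keep the spindle bipolar when Kif11 is inhibited, was at 187 and 200.2 CPM with ethanol and 108 and 119 CPM with tamoxifen, a 1.71-fold fall (-0.77 ± 0.15, adjusted p = 0.00158). Neither was called with GC correction (Kif11 -0.25, adjusted p = 0.255; Kif15 -0.25, adjusted p = 0.238). Kifc1 (HSET), which bundles microtubules at the poles and opposes Kif11, was at 51.4 and 62.8 CPM with ethanol against 96.5 and 105 CPM with tamoxifen, and rose 1.76-fold (0.82 ± 0.15, adjusted p = 0.00141; 0.36 and not called with GC correction, adjusted p = 0.128). Kifc5b, a close copy of Kifc1 on the same chromosome 17, moved likewise from 38.6 ± 3.31 to 65.3 ± 5.43 CPM (± SD, n = 2; 0.76 ± 0.15, adjusted p = 0.00195; 0.38 with GC correction). Because of their similarity, reads of Kifc1 and Kifc5b may have been split or dropped in counting, and their separate levels are uncertain. With GC correction both were called without ethanol 2 (0.60 and 0.54).

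Motors that act at chromosomes and kinetochores in metaphase did not move together. Kif18a, the kinesin-8 that dampens the swings of chromosomes at the metaphase plate, had the largest decrease of the mitotic kinesins, with 122 and 156 CPM with ethanol against 40.9 and 56.7 CPM with tamoxifen. It fell 2.86-fold (-1.51 ± 0.19, adjusted p = 0.000179) and remained called with GC correction (-0.69 ± 0.16, adjusted p = 0.00792), except without tamoxifen 1 (-0.52). Its relative Kif18b, which shortens astral microtubules, was at 131 and 109.6 CPM with ethanol and 172 and 165 CPM with tamoxifen and rose 1.40-fold (0.49 ± 0.15, adjusted p = 0.0202). That call ended with GC correction (0.16, adjusted p = 0.46) and, uncorrected, without ethanol 2 (0.37), tamoxifen 1 (0.45) or tamoxifen 2 (0.52). The microtubule depolymerase Kif2c (MCAK), which corrects wrong kinetochore attachments, was at 138 and 148 CPM with ethanol and 132 and 141 CPM with tamoxifen; the groups overlapped (-0.07 ± 0.14, adjusted p = 0.736; -0.04 with GC correction). Kif2a, the depolymerase of spindle poles that also works in neurons, went from 127 ± 12.7 to 75.2 ± 4.26 CPM (SD, n = 2) and fell (-0.75 ± 0.15, adjusted p = 0.00182), but stood at 0.05 with GC correction (adjusted p = 0.859). The chromokinesin Kif4, which binds chromosome arms, was at 114 and 146 CPM with ethanol and 88.4 and 96.2 CPM with tamoxifen and fell (-0.50 ± 0.16, adjusted p = 0.0238; -0.33, not called with GC correction). Without ethanol 2 (-0.30), tamoxifen 1 (-0.44) or tamoxifen 2 (-0.55), or with total counts (-0.37), Kif4 was not called. Kif22 (Kid), which pushes chromosome arms away from the poles, had 90.5 and 109 CPM with ethanol and 96.02 and 106 CPM with tamoxifen and overlapping groups (0.02 ± 0.15, adjusted p = 0.932; -0.20 with GC correction). The pseudogene Kif4-ps, at 1.23 to 2.04 CPM, was not called in either fit, and its reads and those of Kif4 may have been split in counting.

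Among the motors of the central spindle and cytokinesis, Kif20b and Kif23 fell and Kif20a did not pass the test. Kif20b (MPHOSPH1), a slow kinesin-6 of late cytokinesis, was at 445 and 483 CPM with ethanol against 164 and 209.9 CPM with tamoxifen. This 2.48-fold fall (-1.31 ± 0.17, adjusted p = 0.000179) remained called with GC correction (-0.56 ± 0.15, adjusted p = 0.0171), but not when tamoxifen 1 (-0.44) or tamoxifen 2 (-0.71) was also left out. Kif23 (MKLP1), the motor of the centralspindlin complex, was at 192 and 201 CPM with ethanol and 119 and 133 CPM with tamoxifen and fell 1.56-fold (-0.64 ± 0.15, adjusted p = 0.00441; -0.36, adjusted p = 0.0925 with GC correction; -0.56 and not called without tamoxifen 1). Kif20a (MKLP2), which brings the chromosomal passenger complex to the central spindle, was at 257 and 273 CPM with ethanol and 239.8 and 279 CPM with tamoxifen, and these overlapped (-0.03 ± 0.15, adjusted p = 0.888; 0.12 with GC correction). Kif14, a kinesin-3 of the midbody, had -0.39 ± 0.14 (adjusted p = 0.0395). This call ended with GC correction (-0.12), with total counts (-0.27), with length correction (-0.31), with DESeq2 (-0.40), and without ethanol 2 (-0.34), tamoxifen 1 (-0.45) or tamoxifen 2 (-0.34).

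The make-up of several families was not alike in the groups, given here as a description with no test. Per kilobase of transcript, Kif18a made up 48.0 and 58.5% of the kinesin-8 pair (Kif18a and Kif18b) with ethanol, and 19.0 and 25.4% with tamoxifen. Of the kinesin-6 genes, Kif20a took 33.9 and 33.7% with ethanol and 50.3 and 49.7% with tamoxifen, and Kif20b went from 38.8 and 39.4% to 22.8 and 24.7%, while Kif23 stayed within 25.6 to 27.3%. Kif2c took 65.4 and 70.02% of the sum of the kinesin-13 genes Kif2a, Kif2b and Kif2c with ethanol and 75.9 and 78.4% with tamoxifen. Kif24, also a kinesin-13, was left out of this sum (7.31 CPM per kb with ethanol and 7.82 with tamoxifen). The libraries of the 2 groups did not overlap in these shares, apart from Kif23. Shares were not corrected for GC content, and the members of a pair differ in it (38.3% for Kif18a and 55.2% for Kif18b). On the same per-kilobase scale, Kif11 (86.5 CPM per kb) and Kif20b (83.4) were the highest of all tested members with ethanol, and Kif20a (70.7) and Cenpa (64.1) with tamoxifen.

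**Figure D3:**
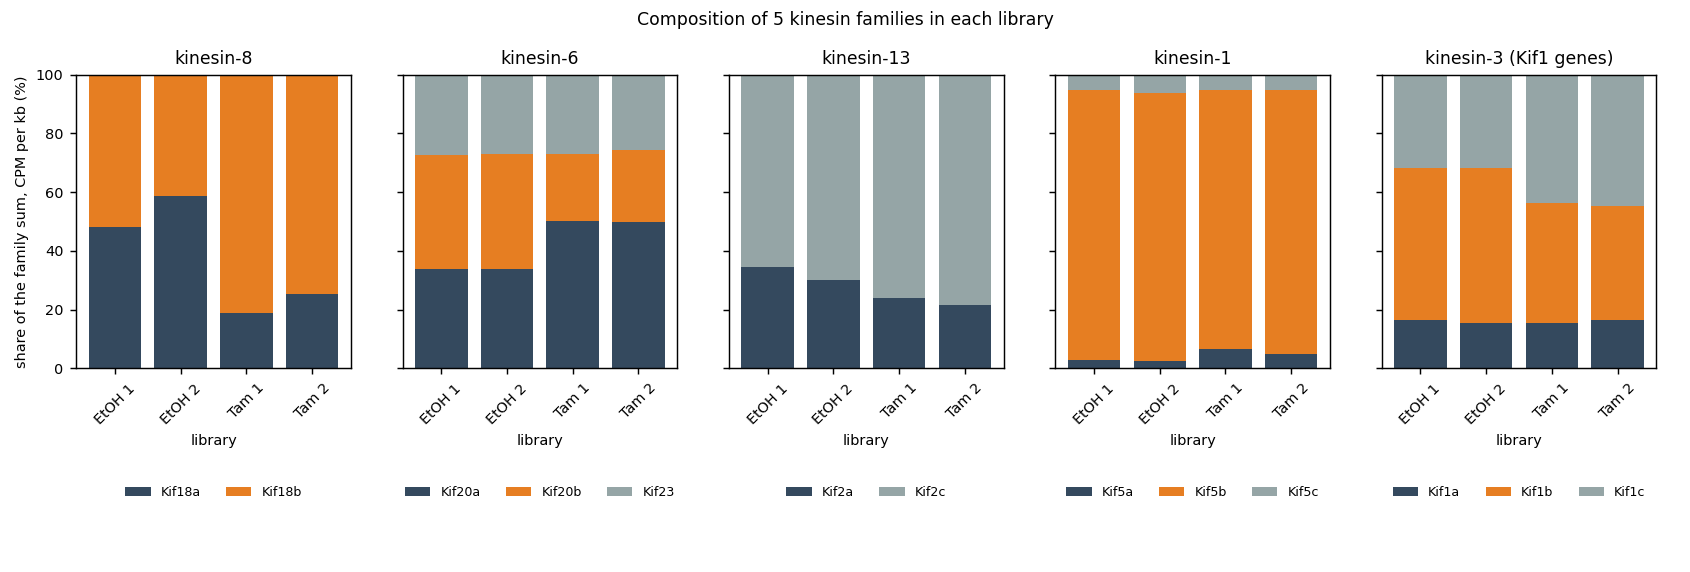
Share of each gene in the summed CPM per kb of the genes shown for its family (vertical axis, %) in each of the 4 libraries. Kif24 is left out of kinesin-13 and Kif19a out of kinesin-8, and kinesin-3 holds the Kif1 genes only. The share of Kif18a is 48.0 and 58.5% with ethanol and 19.0 and 25.4% with tamoxifen, that of Kif1b 51.5 and 52.8% and then 40.9 and 38.8%, and Kif5b holds 88.4 to 91.8% of its family.

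Most promoters of the mitotic kinesins held TTTGAA, a short motif known as the cell-cycle homology region, through which the DREAM complex can repress mitotic genes outside their phase. Promoter stretches are shown because genes that hold it moved in opposite directions before GC correction. Each sequence runs from 80 bases before the RefSeq start site to 30 bases from it on, 5′ to 3′ (110 bases, GRCm38.p6, the build of the reference and not of the counts), with capitals for TTTGAA or CCAAT on either strand (TTCAAA and ATTGG read from the other strand):
Kif11, chr19:37376302-37376411, strand +: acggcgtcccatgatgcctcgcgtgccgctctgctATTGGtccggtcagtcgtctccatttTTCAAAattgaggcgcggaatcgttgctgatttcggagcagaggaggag
Kif15, chr9:122951001-122951110, strand +: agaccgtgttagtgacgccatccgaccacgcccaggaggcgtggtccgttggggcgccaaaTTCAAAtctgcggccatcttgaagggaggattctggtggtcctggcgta
Kif20b, chr19:34922278-34922387, strand +: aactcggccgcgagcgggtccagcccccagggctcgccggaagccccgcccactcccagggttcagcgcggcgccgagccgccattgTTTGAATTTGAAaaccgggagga
Kif23, chr9:61946770-61946879, strand -: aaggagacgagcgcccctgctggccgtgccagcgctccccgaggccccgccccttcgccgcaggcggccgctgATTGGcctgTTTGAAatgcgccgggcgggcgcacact
Kifc1, chr17:33890604-33890713, strand -: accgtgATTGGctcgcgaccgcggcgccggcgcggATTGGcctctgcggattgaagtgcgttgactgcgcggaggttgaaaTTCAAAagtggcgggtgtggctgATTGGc
Kif18b, chr11:102925095-102925204, strand -: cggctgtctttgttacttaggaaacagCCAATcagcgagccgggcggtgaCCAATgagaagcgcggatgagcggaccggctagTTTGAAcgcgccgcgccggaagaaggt
Kif22, chr7:127042391-127042500, strand -: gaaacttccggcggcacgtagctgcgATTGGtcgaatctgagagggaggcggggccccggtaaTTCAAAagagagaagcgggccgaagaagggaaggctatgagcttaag
Kif18a, chr2:109280658-109280767, strand +: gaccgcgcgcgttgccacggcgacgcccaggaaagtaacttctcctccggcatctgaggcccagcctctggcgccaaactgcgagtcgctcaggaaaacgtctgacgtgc
Without GC correction the first 4 of these genes fell, Kifc1 and Kif18b rose, and Kif22 was not called. Kif18a is shown as the mitotic kinesin with the largest fall, in whose stretch neither motif was found. With GC correction only Kif20b and Kif18a of these genes were called, both lower.

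Of the 63 members, 53 had a RefSeq promoter window (250 bases before the start site and 50 from it on), 59 windows in all. TTTGAA lay on either strand in 11 of 15 windows of mitotic kinesins (73.3%), against 17.9% of all 32851 promoter windows of that length. It began within 30 bases of the start site in 9 of these 15 (60%), against 3.19% of all windows; that distance was chosen after seeing the sequences. Of the mitotic kinesin genes with a window, 6 of 8 called lower, 3 of 3 called higher and 2 of 2 not called held it. These calls are without GC correction. Kifc1 and Kifc5b, both called higher, are close copies whose windows share long stretches, so counting them apart does not make them independent. Centromere proteins had TTTGAA in 5 of 21 windows (23.8%) and transport kinesins in 1 of 13 (7.69%). The variant TTTAAA was in 2 of 15 mitotic kinesin and 5 of 21 centromere protein windows, against 13.2% of all, and the CCAAT box in 9 of 15 and 15 of 21, against 37.4%. The 3 motifs were counted apart, on both strands, and matches of one may overlap those of another. A match describes the letters of the window and does not show that a factor binds there.

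At the centromere itself, the chromatin mark Cenpa did not pass the test, the DNA-binding Cenpb rose, and Cenpc1 fell before GC correction only. Cenpa, the histone H3 variant that marks the centromere, was at 114 and 107 CPM with ethanol against 94.03 and 94.04 CPM with tamoxifen. Both tamoxifen libraries lay below both ethanol libraries, but by less than the test resolved (-0.23 ± 0.14, adjusted p = 0.199; close to 0 with GC correction). Cenpb, which binds a sequence box in centromeric satellite DNA, was at 19.6 and 24.8 CPM with ethanol against 47.6 and 59.3 CPM with tamoxifen. It rose 2.40-fold (1.26 ± 0.17, adjusted p = 0.000266), the largest increase among the centromere proteins, and was called with GC correction (0.85 ± 0.18, adjusted p = 0.00457) except without tamoxifen 2 (0.68). Cenpc1, the scaffold that joins centromeric chromatin to the rest of the kinetochore, was at 82.2 and 95.3 CPM with ethanol and 55.5 and 57.7 CPM with tamoxifen. Its fall (-0.65 ± 0.15, adjusted p = 0.00408) was not seen with GC correction (0.03, adjusted p = 0.905).

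The constitutive network that sits on Cenpc1 through the whole cell cycle held both the largest decreases of the class and the other increase. Cenpk, of the group with Cenph, Cenpi and Cenpm, was at 42.2 and 32.3 CPM with ethanol against 9.06 and 11.04 CPM with tamoxifen. With a 3.68-fold fall it was the member with the largest decrease of all 60 (-1.88 ± 0.19, adjusted p = 6.14e-05), and it remained called with GC correction (-0.93 ± 0.20, adjusted p = 0.00455) and in each of the 4 corrected fits that left out 1 library (-1.18 to -0.64). In the same group Cenpm was at 40.6 and 31.1 CPM with ethanol and 67.7 and 68.3 CPM with tamoxifen and rose 1.90-fold (0.93 ± 0.16, adjusted p = 0.00096). With GC correction Cenpm had 0.56 ± 0.15 (adjusted p = 0.0161), a call lost without tamoxifen 1 (0.56) or tamoxifen 2 (0.55). Cenph fell by 0.38 at the edge of the threshold (adjusted p = 0.0491; 0.06 with GC correction, and not called in 8 of the 12 other uncorrected settings), and Cenpi had -0.42 ± 0.17 (adjusted p = 0.0576; 0.09 with GC correction).

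Of the group Cenpo, Cenpp, Cenpq and Cenpu, Cenpq was at 30.6 and 28.8 CPM with ethanol and 11.8 and 11.99 CPM with tamoxifen and fell 2.49-fold (-1.32 ± 0.16, adjusted p = 0.000144). It remained called with GC correction (-0.82 ± 0.16, adjusted p = 0.00267), also in each of the 4 corrected fits without 1 library (-0.90 to -0.76). Cenpp was at 19.7 and 20.9 CPM with ethanol and 7.71 and 10.6 CPM with tamoxifen and fell 2.21-fold (-1.14 ± 0.19, adjusted p = 0.00069; -0.69 ± 0.18 with GC correction, adjusted p = 0.0145, lost without tamoxifen 1 at -0.51). Cenpu fell by 0.51 (adjusted p = 0.0175; -0.08, not called with GC correction, nor uncorrected with total counts, -0.39, or without tamoxifen 1, -0.52, or tamoxifen 2, -0.50), whereas Cenpo stood at 0.15 (adjusted p = 0.423; 0.19 with GC correction).

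Of the histone-fold pair, Cenpw was at 38.05 and 31.2 CPM with ethanol and 20.8 and 18.3 CPM with tamoxifen and fell (-0.82 ± 0.17, adjusted p = 0.00213; 0.17, not called with GC correction). Its partner Cenpt, which reaches out to the outer kinetochore, had 68.3 and 59.6 CPM with ethanol and 76.8 and 74.7 CPM with tamoxifen and was not called (0.25 ± 0.14, adjusted p = 0.185; -0.05 with GC correction). Cenpl, which with Cenpn recognises the Cenpa nucleosome, fell by 0.50 (adjusted p = 0.0281; 0.16 with GC correction). The call of Cenpl also ended with DESeq2 (-0.51), with total counts (-0.37) and without ethanol 2 (-0.46), tamoxifen 1 (-0.52) or tamoxifen 2 (-0.48). Cenpn had -0.28 ± 0.15 (adjusted p = 0.128; -0.11 with GC correction).

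Both large coiled-coil proteins of the outer kinetochore fell. Cenpe, the kinesin-7 that carries chromosomes to the metaphase plate, was at 439 and 497 CPM with ethanol against 208 and 272 CPM with tamoxifen, a 1.95-fold fall (-0.96 ± 0.17, adjusted p = 0.00109; -0.46 ± 0.16, adjusted p = 0.0533 with GC correction, and called there without ethanol 1 at -0.52). Cenpf, a farnesylated protein that appears before mitosis and is lost after it, was at 742 and 966 CPM with ethanol against 413 and 578 CPM with tamoxifen. The replicates of Cenpf were far apart in both groups, but the groups did not overlap (-0.78 ± 0.20, adjusted p = 0.00736; -0.30, not called with GC correction; -0.56 and not called without tamoxifen 1; called with correction and without ethanol 1, -0.46). Cenpj (CPAP), which controls centriole length and is no part of the centromere, was at 38.4 and 40.2 CPM with ethanol and 24.6 and 24.5 CPM with tamoxifen and fell 1.60-fold (-0.68 ± 0.15, adjusted p = 0.00335; -0.31, adjusted p = 0.15 with GC correction). Cenpv, a microtubule-binding protein, was at 57.3 and 33.1 CPM with ethanol and 41.5 and 51.2 CPM with tamoxifen, with the ethanol libraries far apart (0.05 ± 0.24). With GC correction it was called lower (-0.66, adjusted p = 0.031), a call that ended without ethanol 1 (-0.33), tamoxifen 1 (-0.54) or tamoxifen 2 (-0.80). Cenpv was called higher without correction when ethanol 1 was left out (0.49).

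Other genes of the kinetochore and spindle were called lower more often than higher before GC correction. Over the 5 lists below, 49.3% of 71 tested genes were lower, against 22.9% of all genes, and 7.04% with GC correction, against 10.1%. Of the loading factors of Cenpa and centromere genes under other symbols, 4 of 7 tested fell and 1 rose (2 lower and 0 higher with GC correction). Mis18a, which prepares centromeres for new Cenpa, went from 41.7 ± 7.43 to 19.6 ± 0.557 CPM (mean ± SD of 2 libraries; -1.09 ± 0.17, GC-corrected -0.79) and was called in both fits. Of the outer kinetochore genes, 10 of 17 fell and 1 rose (1 lower and 0 higher with GC correction). Casc5, the scaffold for checkpoint proteins, fell by 1.26 on the log2 scale (-0.39, not called with GC correction), and Ndc80, which grips the microtubule, by 0.89 (-0.46, adjusted p = 0.0445 with it). Checkpoint and passenger complex genes fell in 4 of 13 cases and rose in 2 (0 lower and 1 higher with GC correction), with the cohesin protector Sgol1 at -0.73 (-0.12, not called with GC correction) and the kinase Ttk at -0.73 (-0.23, not called). Genes of spindle assembly and cytokinesis fell in 9 of 16 cases and rose in 2 (0 and 0 with GC correction), among them Nusap1 (-1.01; -0.42 with GC correction) and Hmmr (-0.91; -0.32). Mitotic regulators fell in 8 of 18 cases and rose in 3 (2 lower and 1 higher with GC correction). The proliferation marker Mki67 fell from 2362 ± 239 to 1325 ± 35.6 CPM (-0.56 with GC correction), while Mybl2, an activator of mitotic genes, rose from 528 ± 25.3 to 1054 ± 7.53 CPM (0.59), both called in both fits. The medians of these 5 lists were -0.65, -0.57, -0.05, -0.50 and -0.34, against -0.01 over all genes. With GC correction they were -0.37, -0.14, -0.10, -0.16 and -0.08, against 0.01.

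**Figure D4:**
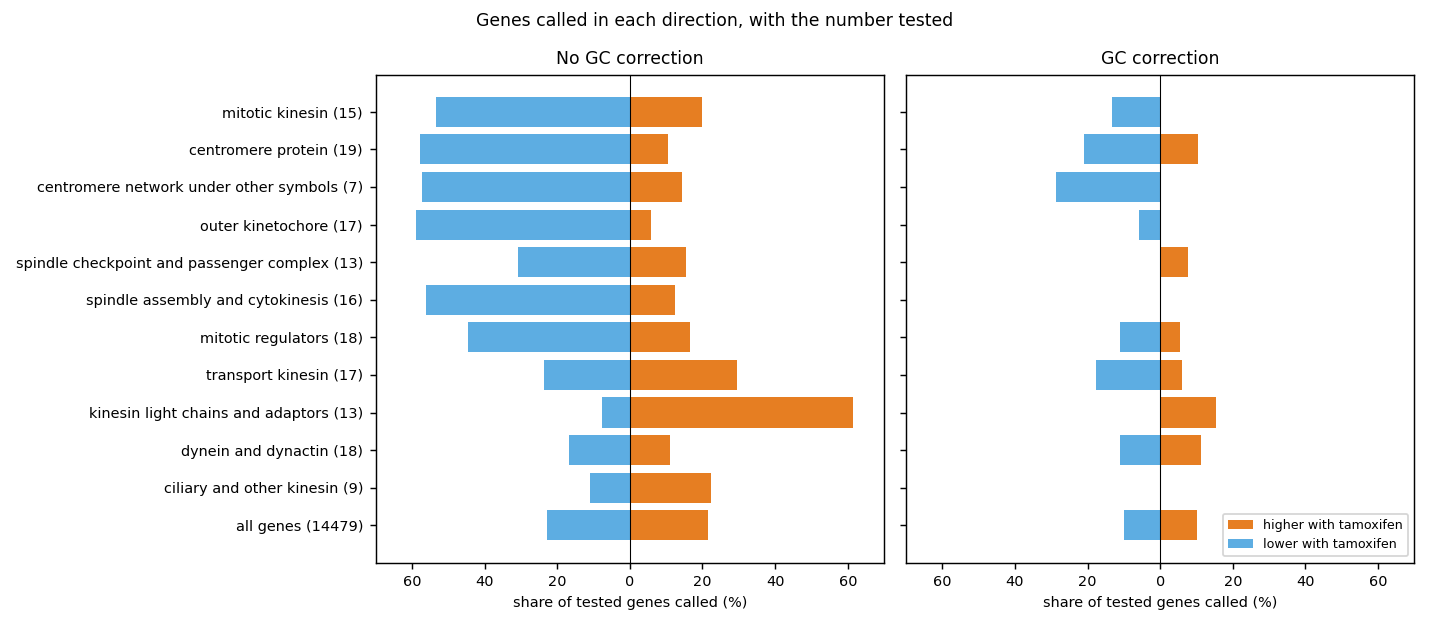
Share of tested genes (horizontal axis, %; number tested in parentheses) called lower (left) and higher (right) with tamoxifen in each class or list, without and with GC correction. Without correction 53.3% of mitotic kinesins and 57.9% of centromere proteins are lower, against 22.9% of all genes, and with it 13.3% and 21.1%, against 10.1%.

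Transport kinesins changed in both directions, with 29.4% higher and 23.5% lower, against 21.5 and 22.9% of all genes. With GC correction 5.88% were higher and 17.6% lower, against 10 and 10.1% of all genes. Of the 4 decreases 3 were called in both fits, against 1112 of 3322 over all genes. Of the kinesin-1 heavy chains, which carry most cargo of non-neuronal cells, the ubiquitous Kif5b was at 325 and 367 CPM with ethanol against 193 and 237 CPM with tamoxifen and fell 1.61-fold (-0.69 ± 0.16, adjusted p = 0.00512). With GC correction Kif5b stood at -0.05 (adjusted p = 0.834), and uncorrected it was not called without tamoxifen 1 (-0.55). The neuronal Kif5c was at 21.1 and 29.4 CPM with ethanol and 12.8 and 16.03 CPM with tamoxifen and fell 1.75-fold (-0.81 ± 0.19, adjusted p = 0.00563; -0.60 ± 0.19 with GC correction, adjusted p = 0.0365, lost without ethanol 2 at -0.33, tamoxifen 1 at -0.46 or tamoxifen 2 at -0.77). Kif5a, the other neuronal heavy chain, was at 10.9 and 9.98 CPM with ethanol and 14.8 and 13.2 CPM with tamoxifen; the groups did not overlap but the test was not passed (0.43 ± 0.17, adjusted p = 0.0598; 0.20 with GC correction). Per kilobase, Kif5b held 88.4 to 91.8% of the kinesin-1 sum in every library.

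The kinesin-4 pair Kif21a and Kif21b, which restrain microtubule growth in neurons and other cells, fell together. Kif21b was at 57.01 and 59.6 CPM with ethanol against 37.5 and 34.97 CPM with tamoxifen, tight replicates with a gap between the groups (-0.69 ± 0.14, adjusted p = 0.00273). Its transcript is rich in G and C (56.7%), and with GC correction the decrease was -1.12 ± 0.15 (adjusted p = 0.000168), the largest corrected decrease of all members and called in each of the 4 corrected fits without 1 library (-1.23 to -1.01). Kif21a was at 40.3 and 48.6 CPM with ethanol and 24.2 and 27.1 CPM with tamoxifen (-0.79 ± 0.16, adjusted p = 0.00213; -0.56 ± 0.16 with GC correction, adjusted p = 0.0211). The corrected call of Kif21a ended without ethanol 2 (-0.42), tamoxifen 1 (-0.49) or tamoxifen 2 (-0.63).

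Of the Kif1 genes of the kinesin-3 family, Kif1c, a carrier of integrins and vesicles, was at 46.1 and 53.03 CPM with ethanol against 87.9 and 89.4 CPM with tamoxifen. It rose 1.79-fold (0.84 ± 0.15, adjusted p = 0.000955) and was called with GC correction (0.55 ± 0.15, adjusted p = 0.0182), except without ethanol 1 (0.39), tamoxifen 1 (0.56) or tamoxifen 2 (0.54). Kif1a, the carrier of synaptic vesicle precursors, was at 29.3 and 31.3 CPM with ethanol and 38.6 and 40.6 CPM with tamoxifen and passed by a narrow margin (0.39 ± 0.15, adjusted p = 0.0491). The call ended with GC correction (0.06), with DESeq2 (0.38), with RLE factors (0.38), with no filter on low counts (0.37) and without ethanol 1 (0.34), tamoxifen 1 (0.42) or tamoxifen 2 (0.35). Kif1b, a carrier of mitochondria, had 114 and 135 CPM with ethanol and 126 and 119 CPM with tamoxifen and overlapping groups (-0.02 ± 0.15, adjusted p = 0.926; 0.14 with GC correction). The share of Kif1c in the per-kilobase sum of the 3 genes was 31.9% in both ethanol libraries, against 43.6 and 44.6% with tamoxifen.

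The kinesin-2 motor subunits of intraflagellar transport, Kif3a (41.8 and 43.3 CPM with ethanol and 49.5 and 46.01 CPM with tamoxifen; 0.17 ± 0.14, GC-corrected 0.37) and Kif3b (34.1 and 38.1 CPM with ethanol and 39.8 and 44.2 CPM with tamoxifen; 0.22 ± 0.15, GC-corrected 0.32), were not called (adjusted p = 0.368 and 0.259). Kif17, a homodimeric relative, had few reads, at 1.63 and 1.11 CPM with ethanol and 3.68 and 2.86 CPM with tamoxifen, and rose 2.43-fold (1.28 ± 0.31, adjusted p = 0.00535; 0.64, adjusted p = 0.144 with GC correction). The minus-end motors Kifc2 (13.3 and 11.3 CPM with ethanol and 19.2 and 15.1 CPM with tamoxifen) and Kifc3 (8.86 and 9.29 CPM with ethanol and 11.3 and 15.4 CPM with tamoxifen) were called higher (0.49 and 0.56, adjusted p = 0.0467 and 0.0317), but stood at -0.11 and -0.07 with GC correction. Both calls ended with DESeq2, that of Kifc2 also with limma voom (0.48) and without ethanol 2 (0.37) or tamoxifen 1 (0.30) and that of Kifc3 without tamoxifen 2 (0.32). Kif3c, Kif13a, Kif13b and Kif16b were not called, at -0.09 to 0.35 (0.14 to 0.28 with GC correction). By their RefSeq windows Kif16b (chr2:142901415-142901714, strand -) and Kif16bos (chr2:142902715-142903014, strand +) point away from each other and do not overlap. The annotation and strand setting of the counting are not known, and whether their reads were mixed was not tested. Scaling by total counts alone, which moved the median of all genes from -0.01 to 0.12 and the calls to 4082 higher and 2520 lower (from 3119 and 3322), gave 9 transport kinesins called higher.

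Kinesin light chains and adaptors were mostly higher before GC correction, and dynein and dynactin genes were not. Of 13 kinesin light chain and adaptor genes 8 rose and 1 fell (61.5 and 7.69%, against 21.5 and 22.9% of all genes). With GC correction 2 were higher and 0 lower (15.4 and 0%, against 10 and 10.1%). Among the 8 were the light chains Klc3 (1.09, and 0.28 and not called with GC correction) and Klc2 (0.64, and -0.02 and not called). The adaptor Fez1 was another (1.03, and 0.87 and called). Of 18 genes of dynein and dynactin, the motor that runs the other way, 2 rose and 3 fell (11.1 and 16.7%). Both were below the shares of all genes. With GC correction 2 were higher and 2 lower (11.1% each). Dctn1, the dynactin subunit that binds microtubules, rose from 54.1 ± 2.24 to 116 ± 3.89 CPM (mean ± SD of 2 libraries; GC-corrected change 0.54), and the intermediate chain Dync1i2 fell from 246 ± 20.6 to 131 ± 2.43 CPM (-0.52), both called in both fits.

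Ciliary and other kinesins made 3 calls, which lay at the threshold. Kif26b, an atypical kinesin of kidney development, was at 1.24 and 1.04 CPM with ethanol and 2.12 and 1.91 CPM with tamoxifen (0.84 ± 0.32, adjusted p = 0.0481). Kif27 of motile cilia was at 1.95 and 2.04 CPM with ethanol and 1.06 and 1.18 CPM with tamoxifen (-0.83 ± 0.32, adjusted p = 0.0487), and Kif26a was at 13.5 and 13.8 CPM with ethanol and 17.97 and 18.5 CPM with tamoxifen (0.42 ± 0.16, adjusted p = 0.0498). None of the 3 was called with GC correction (0.66, -0.69 and -0.31), with DESeq2, with limma voom or without a filter on low counts. When 1 library was left out, Kif27 and Kif26a were called in no case, and Kif26b in 1 of 4, without ethanol 1. Kif7, which works at the tip of the primary cilium as a regulator of Hedgehog signaling, was at 9.77 and 11.7 CPM with ethanol and 15.4 and 13.3 CPM with tamoxifen and did not pass (0.41 ± 0.18, adjusted p = 0.0806; -0.21 with GC correction); it was called without ethanol 2 (0.56). Kif24, which restrains cilium assembly at centrioles, Kif1bp, Kif6, Kif9 and Kif19a were not called, at -0.77 to 0.42 (-0.82 to 0.14 with GC correction). Motile cilium genes rose in 4 of 12 cases and fell in 2 (33.3 and 16.7%, against 21.5 and 22.9% of all genes). Under GC correction these were 3 and 2 (25 and 16.7%, against 10 and 10.1%).

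Changes of the members followed the GC content of their transcripts. The 12 members called higher had transcripts of 53.1 to 61.7% GC and the 24 called lower of 35.8 to 56.7%; Kif21b was at the upper end of the latter, and the other members called lower were at 48.6% or below. Within the mitotic kinesins, the 8 that fell lay at 38.3 to 48.1%, the 4 not called at 46.5 to 53.7% and the 3 that rose at 55.2 to 57.0%. Rank correlation (Spearman) between GC content and change was 0.826 for the 60 members and 0.964 for the 15 mitotic kinesins, and 0.283 and 0.729 after correction; these genes share the same 4 libraries. With all tested genes split by GC content into 10 equal bins, 8 of 8 members in the lowest bin (31.0 to 42.0%) were lower, as were 72.2% of all its genes. In the next bin (42.0 to 44.5%) 8 of 9 members were lower, against 52.3%, and in the third (44.5 to 46.7%) 3 of 5, against 37.6%. The fourth bin (46.7 to 48.6%) had 4 of 9 members lower, against 23.3%, and the fifth (48.6 to 50.5%) 0 of 5, against 16.8%. In the sixth bin 0 of 3 members were higher, against 16.7% of all its genes, and in the seventh 1 of 5, against 25.6%. The eighth (54.2 to 56.2%) had 5 of 6 higher, against 37.5%, and the ninth 2 of 3, against 51.4%, with 1 lower. In the tenth (58.5 to 78.9%) 4 of 7 were higher, against 59.3%.

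**Figure D5:**
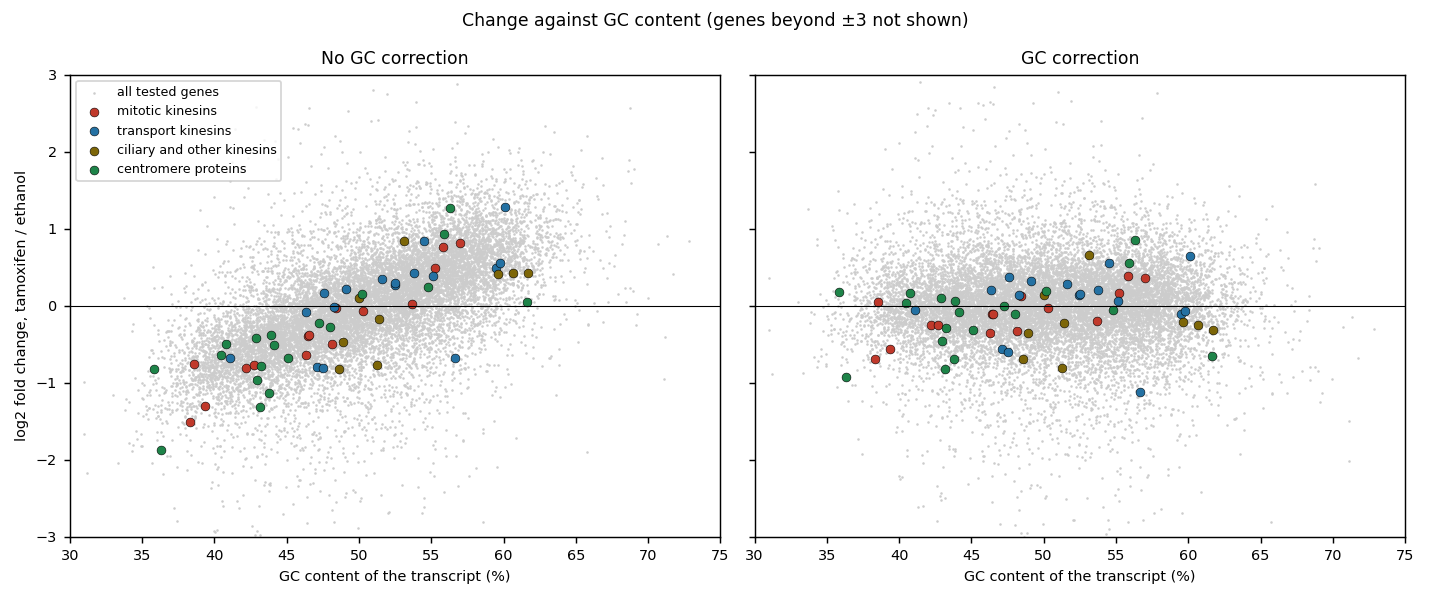
Log2 fold change (vertical axis) against GC content of the transcript (horizontal axis, %) for all tested genes (grey) and the members (colored by class), without and with GC correction. Without correction members rise with GC content like other genes (Spearman 0.826 over 60 members), and with it most lie near 0, with Kif21b lowest at -1.12.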

How the data were processed

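Poly(A) RNA-seq of 4 libraries was analysed (2 per group). The authors deposited whole-number read counts per gene symbol, 1 file per library, with 5 closing summary lines. These lines were left out of gene totals and fits (reads on no annotated feature: 35.0 to 51.7%). The submitters' processing notes name the build mm9 and, without roles, HTSeq, DESeq2, Bowtie 1.1.1 and CASAVA 1.8.2. The annotation and the strand setting of the counting were not given in the sources used here. Overlapping genes, antisense ones among them, therefore cannot be told apart.

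Counts were tested with edgeR 4.0.16 in R 4.3.3 (TMM factors, CPM levels, filterByExpr, robust quasi-likelihood fit, group as the only term). The SE was derived from F (size of the log2 fold change divided by the root of F). GC content and length came from the longest coding GENCODE transcript (GRCm38); by symbol 23535 of 24428 genes were found, 524 more by synonym, and 369 were not. For GC correction, each library's deviation of log2 CPM from the gene mean was fitted by loess on GC content (span 0.5, degree 1) and used as an offset. Alternatives were RLE factors, total counts, other filters, DESeq2 1.42.0, limma 3.58.1 voom, the replicate number as a block, length correction and leaving out each library, where the spread of a lone library is taken from the other group. Only the fit without GC correction, on all libraries, was tested on simulated data, with few changed genes and no GC trend. The GC-corrected fits and those without 1 library were not simulated.

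Members, classes and lists were chosen with earlier results of these data known. Named with values were, per class, up to 8 called members with the smallest adjusted p, a fixed set chosen by role, and up to 4 genes of each list, plus Pou5f1 and Nanog as a check of the cell type; further members are named to account for all. Promoter sequences are from RefSeq (GRCm38.p6).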

Additional observations from a re-analysis of the deposited data

How the results depend on the processing

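Class counts depended most on GC correction, which left 0 mitotic kinesins higher and 2 lower, 1 transport kinesin higher, 4 centromere proteins lower and 0 ciliary and other kinesins in either direction. Of 36 called members, GC correction ended 25 calls, and 8 of these also changed sign. Over all genes GC correction left 1448 higher and 1463 lower, from 3119 and 3322. Of the 3119 increases 1078, and of the 3322 decreases 1112, were called the same way in both fits. Total counts gave 9 transport kinesins higher, 3 ciliary and other kinesins higher and 0 lower, 6 mitotic kinesins lower and 8 centromere proteins lower. Over all genes total counts gave 4082 higher and 2520 lower. DESeq2 gave 2 transport kinesins higher, with 2304 of all genes higher and 2835 lower. The calls of all genes also changed with the library left out. Without and with GC correction they were fewest, in both directions, when tamoxifen 1 or tamoxifen 2 was left out. DESeq2, limma voom and the absence of a filter on low counts each gave 0 ciliary and other kinesins higher and 0 lower, RLE factors gave 1 higher and 1 lower, and length correction 0 lower. Leaving out 1 library gave 5 to 8 mitotic kinesins lower, 3 to 5 transport kinesins higher, 7 to 11 centromere proteins lower, and 0 to 1 ciliary and other kinesins higher and 0 lower; the first 3 counts were 5, 3 and 7 without tamoxifen 1 and 6, 3 and 8 without tamoxifen 2. With GC correction and 1 library left out there were 0 to 2 mitotic kinesins higher and 0 to 3 lower, 0 to 1 transport kinesins higher and 1 to 3 lower, and 0 to 2 centromere proteins higher and 2 to 5 lower. Moving Kif2a to the transport kinesins left 7 mitotic kinesins lower, and moving Cenpe to the mitotic kinesins left 10 centromere proteins lower.

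Replicate numbers give no stated pairing. Same-numbered libraries deviated with a correlation of 0.220 over 14479 genes, which with 2 pairs does not show a design. The replicate block raised the calls of all genes from 3119 higher and 3322 lower to 3919 and 4168, added Cenpi, Cenpn, Kif5a and Kif7 to the called members and removed none. GC correction with the replicate block called 2 mitotic kinesins higher and 4 lower, 2 transport kinesins higher and 3 lower, 2 centromere proteins higher and 6 lower and 0 ciliary and other kinesins (all genes: 2550 higher and 2462 lower, from 1448 and 1463 with GC correction alone). Signs turned, without and with this block, for Cenpc1 (0.031, 0.031), Cenph (0.062, 0.064), Cenpi (0.095, 0.099), Cenpl (0.16, 0.16), Cenpt (-0.052, -0.051), Cenpv (-0.66, -0.63), Cenpw (0.17, 0.18), Kif16b (0.20, 0.20), Kif19a (-0.25, -0.27), Kif1b (0.14, 0.14), Kif20a (0.12, 0.12), Kif22 (-0.20, -0.19), Kif26a (-0.31, -0.31), Kif2a (0.049, 0.055), Kif7 (-0.21, -0.21), Kifc2 (-0.11, -0.13) and Kifc3 (-0.066, -0.067); of these the corrected value was called for Cenpv alone in the fit without the block.

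Length correction turned Kif1b (0.066) and Kif22 (-0.025), and total counts Kif16b (0.040), Kif1b (0.11), Kif20a (0.095) and Kif2c (0.061), none of them called. Over the fits without 1 library the sign varied, uncorrected, for Cenpv (-0.30 to 0.49), Kif16b (-0.19 to 0.049), Kif1b (-0.13 to 0.11), Kif20a (-0.14 to 0.074) and Kif22 (-0.10 to 0.16), and GC-corrected for Cenpa (-0.053 to 0.034), Cenpc1 (-0.032 to 0.083), Cenph (-0.0098 to 0.12), Cenpi (-0.063 to 0.27), Cenpw (-0.048 to 0.40), Kif13a (-0.036 to 0.32), Kif19a (-0.57 to 0.057), Kif1a (-0.055 to 0.17), Kif2a (-0.12 to 0.22), Kif2c (-0.12 to 0.037), Kif4-ps (-0.35 to 0.13), Kif5b (-0.17 to 0.053), Kif7 (-0.41 to 0.031), Kifc2 (-0.31 to 0.068) and Kifc3 (-0.29 to 0.12). The causes were not tested. Smarca4 was called lower in every fit. Depth limits Kif17, Kif26b, Kif27 and the other members of a few CPM, where 1 read is 0.0384 to 0.0708 CPM.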
